A study of Mus musculus with 12 samples.

Results

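The 9 genes described here encode postsynaptic kinases and scaffolds: the 4 subunits of calcium/calmodulin-dependent protein kinase II (CaMKII; Camk2a, Camk2b, Camk2d, and Camk2g), the 4 DLG scaffolds (Dlg1, Dlg2, Dlg3, and Dlg4), and Baiap2, the gene for IRSp53. They are defined by gene symbol, and all 9 were found among the 19312 genes of the expression table. RNA-Seq was performed on 12 male C57BL/6N mice, with 3 unpooled mice in each of 4 groups. WT-Veh mice were wild-type and received vehicle, WT-Mem mice were wild-type and received memantine, and KO-Veh and KO-Mem mice carried a homozygous deletion of Shank2 exons 6 and 7 and received vehicle or memantine. Memantine, an NMDA receptor channel blocker, was given orally at 20 mg/kg in 0.1% saccharin, and vehicle was the saccharin alone. All 12 mice were dosed 2 times a day from postnatal day 7 to 21 and sampled at postnatal day 25, so that every group also shared the handling and the saccharin. The methods describe forebrain tissue without the cerebellum and the brain stem beneath it, whereas the labels name whole brain.

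CaMKII is activated when calcium enters through NMDA receptors and binds calmodulin. Its subunits assemble into a holoenzyme and phosphorylate one another, so that the kinase can stay active after calcium has fallen, and this activity is a central step in long-term potentiation. The DLG proteins are membrane-associated guanylate kinases (MAGUKs), which use PDZ domains to hold NMDA receptors and other membrane proteins in the postsynaptic density, and the best known of them is the product of Dlg4, PSD-95. IRSp53, which binds PSD-95 and Shank proteins, bends membranes and links Rac and Cdc42 to actin in dendritic spines.

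The 4 kinase genes encode closely related autophosphorylation segments, and the segment is shown here because the reads of such related genes can be separated only where their sequences differ. The 45 bases of coding sequence are given 5′ to 3′ for 3 of the subunits from GRCm38 (GENCODE M21), with the codon of the phosphorylated threonine in capitals. They lie in coding exons at chr11:5988976-5989020 on the minus strand for Camk2b, at chr3:126797720-126797764 on the plus strand for Camk2d, and at chr14:20760418-20760462 on the minus strand for Camk2g. The threonine is codon 287 of the Camk2b and Camk2d transcripts used and codon 285 of the Camk2g transcript used.
Camk2b: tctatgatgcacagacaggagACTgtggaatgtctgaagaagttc
Camk2d: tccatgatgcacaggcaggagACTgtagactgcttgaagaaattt
Camk2g: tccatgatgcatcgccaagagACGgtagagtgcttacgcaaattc
Camk2b and Camk2d shared 37 of the 45 bases, Camk2d and Camk2g shared 34, and Camk2b and Camk2g shared 30. Over whole transcripts, stretches of 31 bases found also in another gene made up 3.37% of the Dlg4 transcript sequence, 1.05% of that of Dlg1 and of Dlg2, and less than this or none in the other 6 genes. No member shared more than 8 such stretches with the other members, so little of the sequence of these genes was ambiguous among them.

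The table holds normalized counts, which are read estimates rescaled between mice and not log transformed. They summed to between 30373849 and 31199251 per mouse. These sums are set by the rescaling and are not depths. The depth per mouse is not known from them. All 9 members passed the minimum mean of 10 used for testing, and their lowest value in any mouse was 2936. The targeted gene followed the labels: Shank2 had normalized counts of 8000 ± 498 (SD, n = 3) in WT-Veh and 7880 ± 697 in WT-Mem mice, against 2927 ± 178 in KO-Veh and 2900 ± 247 in KO-Mem mice. Markers of forebrain neurons were detected in every mouse, and the excitatory marker Slc17a7 ranged from 34249 to 43625. Of the cerebellar markers, Gabra6 was 254, Pcp2 was 380, and Car8 was 807 in KO-Veh replicate 3, against at most 12.9, 21.5, and 347 in the other 11 mice. WT-Veh replicate 3 also stood apart, with the lowest summed excitatory, inhibitory, and pan-neuronal markers of the 12 mice and the highest summed oligodendrocyte and microglia markers. Its summed striatal markers, 18293, went the other way and ranked 2 from the highest. Slc6a5, a hindbrain marker, was highest in WT-Mem replicate 3, at 180, and next highest in WT-Veh replicate 3, at 85.6. For the members farthest from 0 in a comparison, the value without KO-Veh replicate 3 or WT-Veh replicate 3 is given where it moved by over 1.5 times.

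As normalized counts per kilobase of all annotated exons, averaged over the 12 mice, Camk2a was the highest at 11497 ± 609 (SD, n = 12), followed by Camk2b at 3226 ± 131. Baiap2 (2032 ± 136) and Dlg4 (1913 ± 114) came next and their ranges overlapped. Camk2g (1267 ± 41.7) and Dlg3 (1121 ± 44.4) also overlapped in range, although Camk2g was above Dlg3 in 12 of 12 mice. Dlg2 (769 ± 53.4), Dlg1 (457 ± 22.6), and Camk2d (179 ± 20.5) closed the order, and none of them overlapped with a neighbour. The order depends on the length used: per kilobase of the longest coding transcript, a choice made after the values were seen, Dlg4 (4007) stood above Baiap2 (2532), Dlg2 (1603) stood above Dlg3 (1322), and the lowest pair, Dlg1 (798) and Camk2d (729), overlapped. In normalized counts, Camk2a ranked 12 among all 19312 genes.

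**Figure D1:**
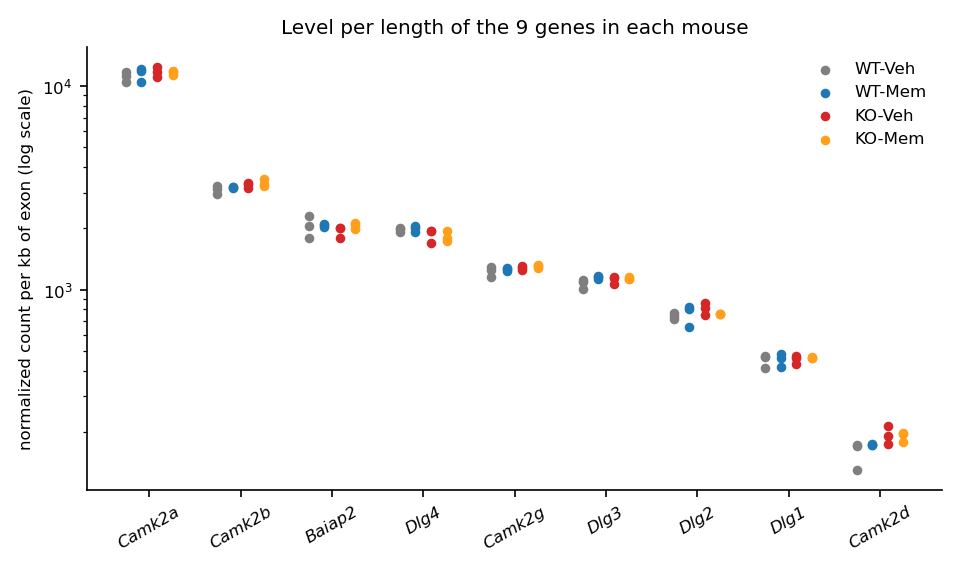
Normalized count per kilobase of annotated exon (vertical axis, log scale) for each of the 9 genes (horizontal axis, in order of the mean), with 1 point per mouse coloured by group. Camk2a lies between 10436 and 12380 in the 12 mice, above every other member, and Camk2d lies lowest, between 131 and 213.

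Within the kinase family, Camk2a contributed 71.1% ± 0.921 (SD, n = 12) of the summed per-kilobase level, Camk2b 20.0% ± 0.632, and Camk2g 7.85% ± 0.360. The share of Camk2d averaged 1.01% in WT-Veh, 1.08% in WT-Mem, 1.18% in KO-Veh, and 1.16% in KO-Mem mice. Within the DLG family, the corresponding share was 44.9% ± 1.81 for Dlg4, 26.3% ± 0.948 for Dlg3, 18.1% ± 1.07 for Dlg2, and 10.7% ± 0.560 for Dlg1. These shares depend on the all-exon lengths. As a share of the family's normalized counts with no division by length, Camk2d made up 3.15%, Camk2a 67.3%, Dlg4 51.4%, Dlg2 25.4%, and Dlg3 13.3%, so that Dlg2 and Dlg3 exchanged places.

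No member was called in any comparison. With limma on log2(normalized count + 1) and Benjamini-Hochberg adjustment over all genes tested, 0 of 9 members had an adjusted p-value under 0.05 between vehicle-treated KO and WT mice (Veh-K/W transcripts, where 0.0283% of all genes were called). The same count, 0 of 9, was obtained for memantine-treated KO and WT mice (Mem-K/W transcripts, 0.068% of all genes) and for genotype pooled over both treatments in a fit of all 12 mice with treatment as a covariate (10.8% of all genes). At an unadjusted p-value under 0.05 there was 1 of 9 members (Camk2d, 11.1%) in Veh-K/W, against 14.4% of all genes. In Mem-K/W there was 1 (Dlg4), against 21% of all genes. In the pooled genotype comparison there were 2 (Camk2d and Dlg4, 22.2%), against 29.5% of all genes. With 9 members, 1 gene makes up 11.1% of them, so that these shares were not read as differing from those of all genes. In bulk tissue, fewer cells that express a gene and less RNA per cell cannot be told apart.

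The fold changes of the members were also small. The median absolute log2 fold change was 0.07 for the members and 0.13 for all genes tested in Veh-K/W, 0.04 and 0.16 in Mem-K/W, and 0.05 and 0.13 in the pooled genotype comparison. The members were measured with smaller errors than most genes, with a median SE of the log2 fold change of 0.07 against 0.11 in Veh-K/W and 0.05 against 0.08 in the pooled comparison. For 8 of the 9 members, all except Camk2d, the 95% interval of the pooled genotype difference lay between −0.21 and 0.18 on the log2 scale.

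**Figure D2:**
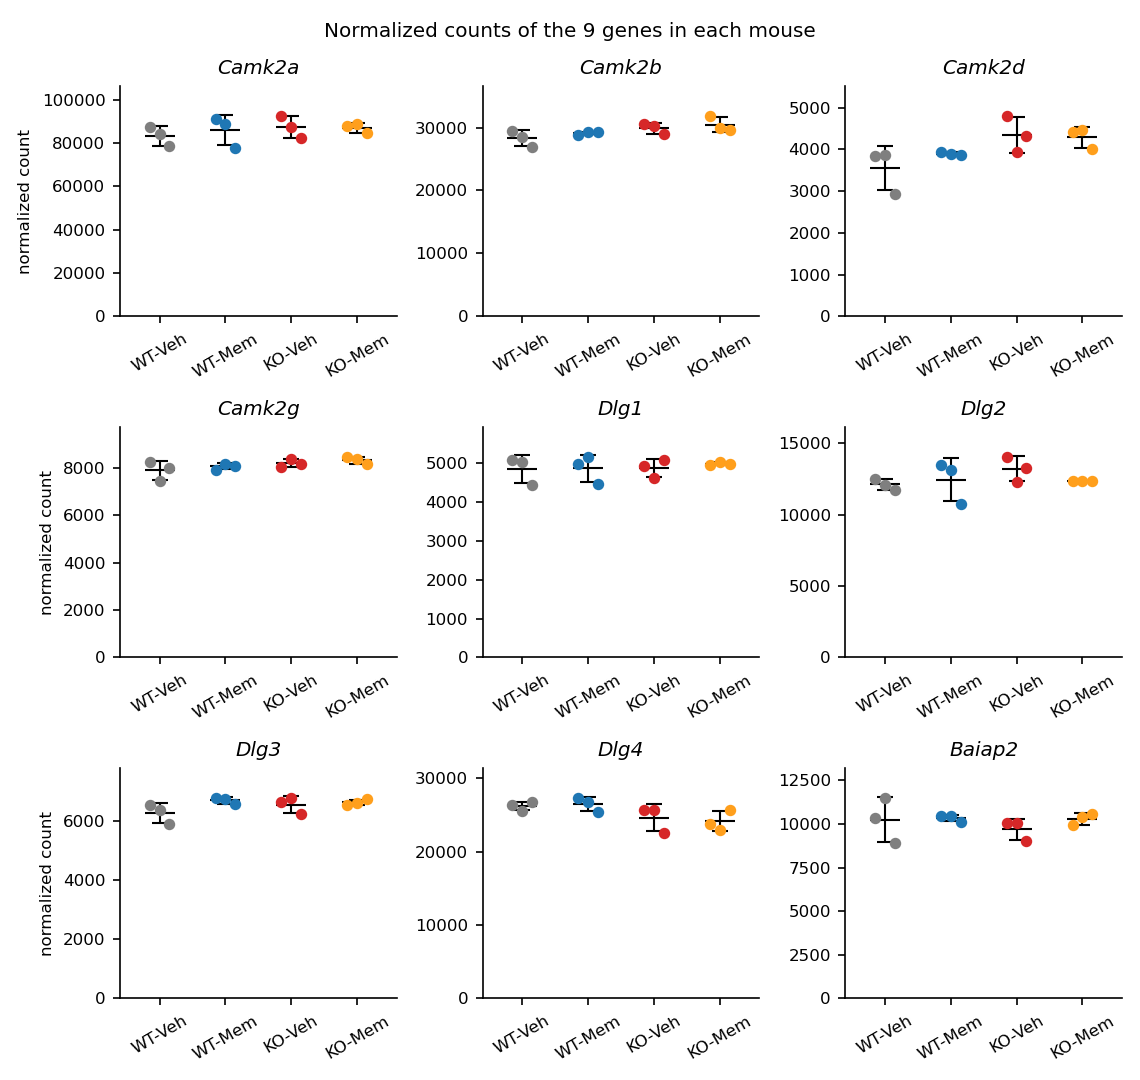
Normalized counts (vertical axis, starting at 0) of the 9 genes in the 4 groups (horizontal axis), with 1 point per mouse and the mean ± SD of the 3 mice in black. The 3 KO-Veh and 3 KO-Mem mice lie at or above 3929 for Camk2d and the 6 WT mice lie at or below 3935.

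Camk2d (ENSMUSG00000053819, chr3:126596302-126846326 on the plus strand of GRCm38), the delta subunit, which is expressed in many tissues and known best from the heart, had the largest genotype difference among the members. Under vehicle, its normalized counts in WT mice were 3841, 3871, and 2936, against 4799, 3929, and 4329 in KO mice. Under memantine, they were 3935, 3897, and 3872 in WT mice, against 4419, 4457, and 4008 in KO mice. Every KO mouse was above every WT mouse of the same treatment. The difference on the log2 scale was 0.30 (SE 0.11, adjusted p = 0.276) in Veh-K/W and 0.14 (SE 0.06, adjusted p = 0.253) in Mem-K/W. Pooled over treatments it was 0.22 (SE 0.07, 95% interval 0.07 to 0.37, adjusted p = 0.0572), a 1.16-fold higher level in KO mice that did not pass the adjusted threshold. Of all genes, 12.6% had a smaller p-value in the pooled comparison. The difference rested partly on WT-Veh replicate 3, the lowest of all 12 mice for this gene: without it, the log2 fold change fell to 0.17 in Veh-K/W and to 0.15 in the pooled comparison (adjusted p = 0.0667). The same mouse had the lowest excitatory, inhibitory, and pan-neuronal marker sums but not the lowest striatal sum. The part of these markers in the Camk2d difference was not tested. The pooled adjusted p-value passed the threshold under quantile normalization (0.0432) and when KO-Veh replicate 2 (0.0485) or KO-Mem replicate 3 (0.033) was left out.

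Camk2a, the most abundant neuronal subunit of the holoenzyme, showed overlapping groups in both genotype comparisons. Its normalized counts were 87365, 83913, and 78459 in WT-Veh mice, 90849, 88548, and 77908 in WT-Mem mice, 92414, 87277, and 82245 in KO-Veh mice, and 87844, 88555, and 84496 in KO-Mem mice. The pooled genotype difference was 0.05 on the log2 scale (95% interval −0.06 to 0.15, adjusted p = 0.550). Camk2b, the subunit that also binds and bundles actin, had 29437, 28475, and 26920 in WT-Veh mice and 30533, 30227, and 28897 in KO-Veh mice. It had 28883, 29253, and 29262 in WT-Mem mice and 31822, 29999, and 29555 in KO-Mem mice, so that the groups did not overlap under memantine and did under vehicle. The pooled log2 fold change of Camk2b was 0.07 (SE 0.04, adjusted p = 0.199). Camk2g, the gamma subunit, which can carry calmodulin to the nucleus, ranged from 7430 to 8450 over the 12 mice with overlapping groups, and its pooled log2 fold change was 0.05 (SE 0.04, adjusted p = 0.367).

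Dlg4 (ENSMUSG00000020886, chr11:70016942-70047522 on the plus strand) had the next smallest p-value after Camk2d in the pooled genotype comparison and was lower in KO mice. Its normalized counts were 26287, 25574, and 26743 in WT-Veh mice, 27280, 26723, and 25352 in WT-Mem mice, 25686, 25697, and 22510 in KO-Veh mice, and 23813, 22912, and 25622 in KO-Mem mice. The groups overlapped under both treatments, and the lowest value belonged to KO-Veh replicate 3, the mouse with the cerebellar markers. The log2 difference was −0.09 (SE 0.07, adjusted p = 0.560) in Veh-K/W, −0.13 (SE 0.06, adjusted p = 0.230) in Mem-K/W, and −0.11 (SE 0.04, 95% interval −0.21 to −0.02, adjusted p = 0.103) when pooled. Without KO-Veh replicate 3, the difference in Veh-K/W was −0.03 and the pooled difference was −0.09.

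The remaining DLG genes did not separate by genotype. Dlg2, which encodes PSD-93, had 12508, 12083, and 11741 in WT-Veh mice, 13455, 13132, and 10712 in WT-Mem mice, 14025, 12287, and 13290 in KO-Veh mice, and 12337, 12333, and 12368 in KO-Mem mice. The KO-Mem mice were nearly identical, with an SD of 19.5, whereas the WT-Mem mice spread with an SD of 1499 and replicate 3 was the lowest. The log2 fold change of Dlg2 was 0.12 (SE 0.07, adjusted p = 0.418) in Veh-K/W, −0.00 in Mem-K/W (SE 0.08), and 0.06 (SE 0.06, adjusted p = 0.496) when pooled. Its Mem-K/W value ran from −0.11 to 0.06 over the fits that left out a mouse. Dlg1, which encodes the widely expressed SAP97, ranged from 4451 to 5165, and Dlg3, which encodes SAP102, a scaffold prominent early in development, ranged from 5912 to 6791. Their pooled log2 fold changes were 0.02 (SE 0.05, adjusted p = 0.779) and 0.03 (SE 0.04, adjusted p = 0.694). Dlg1 differed by 0.01 in Veh-K/W, and the sign changed without WT-Veh replicate 3 (−0.05) or without KO-Veh replicate 3 (−0.02).

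Baiap2 varied most among the WT-Veh mice. Its normalized counts were 10315, 11480, and 8930 in WT-Veh mice, 10432, 10439, and 10116 in WT-Mem mice, 10038, 10058, and 9005 in KO-Veh mice, and 9916, 10374, and 10594 in KO-Mem mice. The highest and the lowest of the 12 values were both from WT-Veh mice. The pooled genotype difference was −0.04 (SE 0.05, 95% interval −0.15 to 0.08, adjusted p = 0.669), and in Veh-K/W it was −0.07 (SE 0.09) with all mice, −0.17 without WT-Veh replicate 3, −0.02 without KO-Veh replicate 3, and 0.01, with the opposite sign, without WT-Veh replicate 2.

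WT-Veh replicate 3 was the lowest of the 12 mice for 5 of the 9 members, which were Camk2b, Camk2d, Dlg1, Dlg3, and Baiap2. The share of all genes that were lowest in this mouse was not computed, so the count is not read as particular to the members. With this mouse and KO-Veh replicate 3 both left out, a choice made after the values were seen, 0 of 9 members were called in Veh-K/W and in the pooled comparison. In place of the 5 and 1907 of all genes called with all mice, these fits called 3 in Veh-K/W and 636 pooled. The pooled log2 fold change was then 0.15 for Camk2d (adjusted p = 0.113) and −0.09 for Dlg4 (adjusted p = 0.221).

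**Figure D3:**
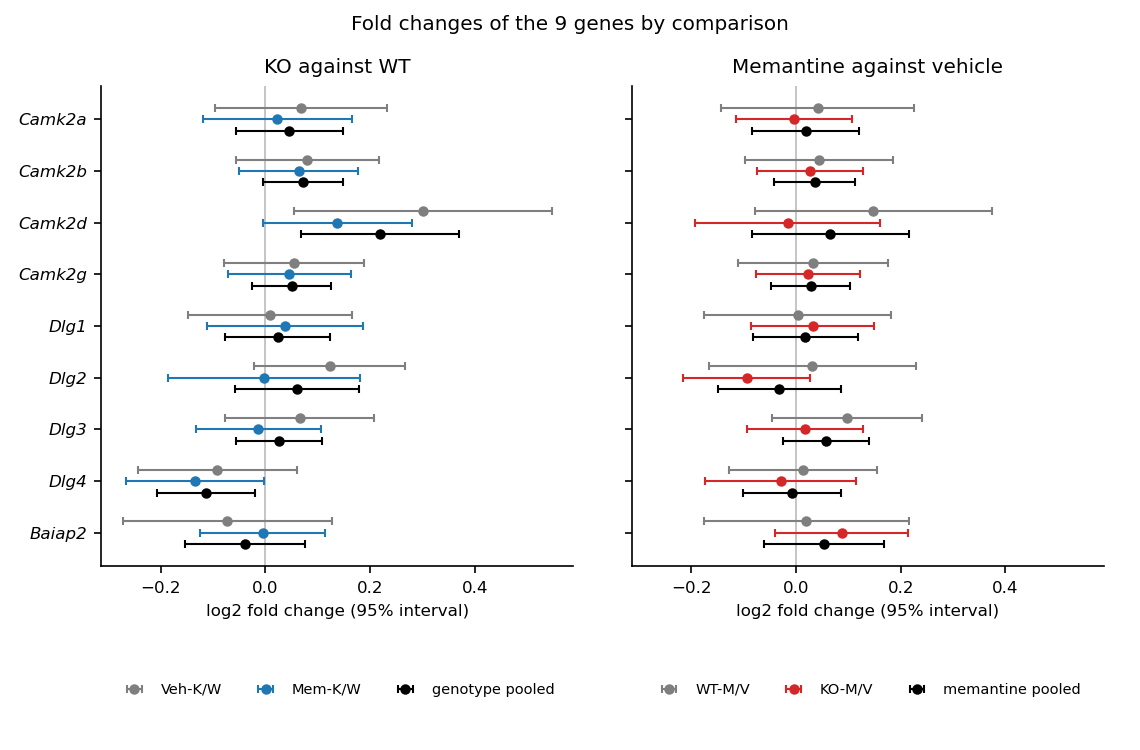
Log2 fold change (horizontal axis) with its 95% interval for each of the 9 genes, for KO against WT (left; Veh-K/W, Mem-K/W, and genotype pooled) and for memantine against vehicle (right; WT-M/V, KO-M/V, and memantine pooled). The pooled genotype intervals of Camk2d (0.07 to 0.37) and Dlg4 (−0.21 to −0.02) do not contain 0, nor do those of Camk2d in Veh-K/W and Dlg4 in Mem-K/W, and every memantine interval contains 0.

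The effect of memantine was compared within each genotype. In KO mice (KO-M/V transcripts, where 0% of all genes were called) 0 of 9 members were called, and in WT mice (WT-M/V transcripts, 0.0114% of all genes) the count was also 0 of 9. Pooled over genotypes, memantine gave 0 of 9 members, and 0% of all genes. By limma, no member reached an unadjusted p-value under 0.05 in these 3 comparisons, against 8.88%, 3.97%, and 8.6% of all genes. In KO mice, the members farthest from 0 were Dlg2 (−0.09, SE 0.05, adjusted p = 0.598) and Baiap2 (0.09, SE 0.06, adjusted p = 0.629, and 0.03 without KO-Veh replicate 3), and the groups overlapped for all 9 members, whereas they did not overlap for 13.9% of all genes. In WT mice, Dlg3 had 6553, 6377, and 5912 under vehicle and 6791, 6761, and 6579 under memantine, without overlap, and Camk2d did not overlap either. These were 2 of 9 members, against 9.34% of all genes. The log2 fold changes were 0.10 for Dlg3 (SE 0.06, adjusted p = 0.978) and 0.15 for Camk2d (SE 0.10, adjusted p = 0.978). For both genes the lowest WT-Veh value was that of replicate 3, and without this mouse the log2 fold change was 0.05 for Dlg3 and 0.02 for Camk2d. Each of the 9 intervals for WT-M/V contained 0.

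Whether genotype altered the response to memantine was examined with the interaction term of the 12-mouse fit, which is the log2 fold change of KO-M/V minus that of WT-M/V. No member was called and 0% of all genes were called. At an unadjusted p-value under 0.05 there was no member, against 4.76% of all genes, and the smallest unadjusted p-value among the members was 0.258, for Camk2d (−0.16, SE 0.14, adjusted p = 0.947). Without WT-Veh replicate 3 the Camk2d term was −0.03. Dlg2 (−0.13, SE 0.11) and Dlg3 (−0.08, SE 0.08, and −0.04 without WT-Veh replicate 3) followed. The Dlg2 term ran from −0.23 to −0.06 over the fits that left out a mouse. The 95% interval for Camk2d, −0.46 to 0.13, was wide relative to the fold changes of the members.

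Treated KO mice were also compared with untreated WT mice (KO-M/WT-V transcripts), a comparison in which genotype and drug both differ and which shares the WT-Veh mice with Veh-K/W. Here 0 of 9 members were called, against 3.37% of all genes, and 1 of 9 (Camk2d) had an unadjusted p-value under 0.05, against 25.9%. The number of all genes called, 595, ran from 1 without KO-Mem replicate 1 or 2 to 2490 without KO-Mem replicate 3, and members called stayed at 0. The groups did not overlap for 3 of 9 members, Camk2b, Camk2d, and Dlg3, against 31.1% of all genes. The log2 fold changes were 0.11 for Camk2b (SE 0.06, adjusted p = 0.312), 0.28 for Camk2d (SE 0.11, adjusted p = 0.131), 0.08 for Dlg3 (SE 0.06, adjusted p = 0.437), and −0.12 for Dlg4 (SE 0.06, adjusted p = 0.259). Without WT-Veh replicate 3 they were 0.15 for Camk2d and 0.04 for Dlg3. The corresponding values of the comparison of treated WT with untreated KO mice (WT-M/KO-V transcripts, 0 of 9 called against 0.0227% of all genes, and 0 of 9 at an unadjusted p-value under 0.05 against 8.94%) were −0.15 for Camk2d (SE 0.07, adjusted p = 0.569), 0.10 for Dlg4 (SE 0.06, adjusted p = 0.626), and 0.09 for Baiap2 (SE 0.06, adjusted p = 0.636). Without KO-Veh replicate 3 the values for Dlg4 and Baiap2 were both 0.04. Baiap2 was the single member without overlap in WT-M/KO-V, where 14.9% of all genes had none. The non-overlapping members in Veh-K/W (1 of 9, Camk2d) and in Mem-K/W (2 of 9, Camk2b and Camk2d) stood against 20.4% and 26.2% of all genes.

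The balance among subunits was then measured as the log2 ratio of normalized counts for the 12 pairs within the 2 families. Ratios cancel a scaling that is common to all genes of a mouse, but not a factor that differs between genes. Each was compared between genotypes by a two-sided exact permutation test of labels within treatment, with 400 arrangements and a smallest possible p-value of 0.005, and adjusted over the 12 ratios. None of the 12 ratios passed the adjusted threshold for genotype. The nearest was Dlg3/Dlg4, which was −2.06 ± 0.100 (SD, n = 3) in WT-Veh and −1.98 ± 0.0303 in WT-Mem mice, against −1.90 ± 0.0506 in KO-Veh and −1.86 ± 0.0683 in KO-Mem mice. All 6 KO mice were above all 6 WT mice in this ratio, from −1.94 to −1.79 against −2.18 to −1.95, with a difference of 0.14 (exact permutation p = 0.005, adjusted p = 0.06). Without WT-Veh replicate 3 the difference was 0.11 (exact permutation p = 0.01, adjusted p = 0.12), and without KO-Veh replicate 3 it was 0.12. With both left out, a choice made after the values were seen, it was 0.10 (exact permutation p = 0.0167, adjusted p = 0.2). With all 12 mice and 12 ratios, a single ratio at the smallest possible p-value, 0.005, cannot be adjusted below 0.06. With both mice left out, only 120 arrangements remain, 0.0167 is the smallest possible p-value, and a single ratio cannot be adjusted below 0.2. The higher adjusted p-value there is therefore not read as a weaker separation. Dlg2/Dlg4 differed by 0.17 (exact permutation p = 0.035, adjusted p = 0.14) and Dlg1/Dlg4 by 0.14 (exact permutation p = 0.08, adjusted p = 0.16), so that each DLG partner of Dlg4 was on the higher side relative to it in KO mice. Without KO-Veh replicate 3, Dlg2/Dlg4 differed by 0.14 and Dlg1/Dlg4 by 0.09. With WT-Veh replicate 3 also left out, they differed by 0.12 (exact permutation p = 0.1) and 0.05 (exact permutation p = 0.417). Since the 3 ratios share Dlg4, they are not separate observations.

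**Figure D4:**
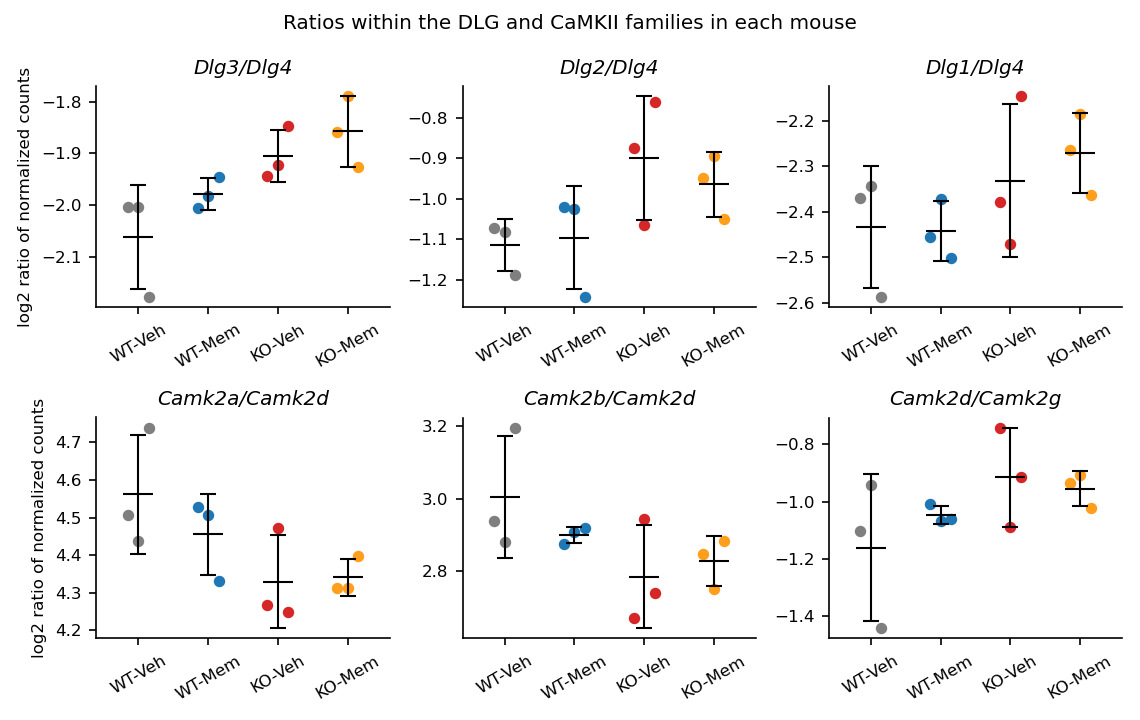
Log2 ratio of normalized counts (vertical axes, not starting at 0) for 6 of the 12 within-family pairs in the 4 groups (horizontal axis), with 1 point per mouse and the mean ± SD of 3 mice in black. The 6 pairs shown are those with the smallest exact permutation p-values for genotype. For Dlg3/Dlg4 the 6 KO mice lie between −1.94 and −1.79 and the 6 WT mice between −2.18 and −1.95, and the other pairs overlap between genotypes.

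Among the kinase subunits, Camk2a/Camk2d was 4.56 ± 0.158 in WT-Veh and 4.45 ± 0.108 in WT-Mem mice, against 4.33 ± 0.125 in KO-Veh and 4.34 ± 0.0492 in KO-Mem mice. The genotype difference was −0.17 (exact permutation p = 0.035, adjusted p = 0.14). Without WT-Veh replicate 3 it was −0.13, and with KO-Veh replicate 3 also left out it was −0.11 (exact permutation p = 0.117). Camk2a/Camk2b, the ratio of the main neuronal subunits, differed by −0.03 (exact permutation p = 0.525), and its group means lay between 1.51 and 1.56. For memantine, none of the 12 ratios passed, and the smallest adjusted p-value was 0.835. With limma across the 12 ratios in place of permutation, 3 ratios passed for genotype (Dlg2/Dlg4, Dlg3/Dlg4, and Camk2a/Camk2d, each with adjusted p = 0.0346), so the call depends on the test. The limma fit of the ratios used all 12 mice and was not repeated without WT-Veh replicate 3 or KO-Veh replicate 3.

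Across the 12 mice, the members did not form a single group that moved together. Among the 36 pairs of members, the highest Pearson r of the log2 values was 0.81 for Camk2b and Camk2d, followed by 0.77 for Camk2a and Dlg2, and the lowest was −0.56 for Camk2d and Dlg4. After centring on group means, these values were 0.64, 0.79, and −0.28, and the extremes were then 0.82 for Dlg3 and Baiap2 and −0.50 for Camk2g and Baiap2. The points share 4 groups and 1 normalization, and r is given as a description. Among 12876 genes that averaged at least 100, the most similar gene was Ap2a2 for Camk2b (r = 0.95), Sec61a1 for Dlg4 (0.96), Ncam2 for Dlg2 (0.96), Yme1l1 for Camk2d (0.95), and Cep44 for Dlg3 (0.94). For Dlg1 it was C1galt1 (0.92), for Camk2a Ikzf5 (0.92), for Baiap2 Tmem39b (0.90), and for Camk2g Gm14326 (0.89).

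The genes that act around the kinase and the scaffolds were taken from 4 lists, of which all 104 genes were tested. In Veh-K/W and in Mem-K/W no gene of the 4 lists was called. In the pooled genotype comparison, 10 of the 104 genes (9.62%) were called, against 10.8% of all genes, so these lists stood near the background. Each call was repeated with each of the 12 mice left out in turn. Nrgn, Camkk2, and Abi1 stayed called in 12 of 12 such fits, and for the others the count and the mouse whose absence gave the highest adjusted p-value are stated.

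Of 32 CaMKII regulators and related kinases, 4 were called (12.5%), 1 higher and 3 lower in KO mice, and the median log2 fold change was −0.00, as for all genes (0.00). Nrgn, neurogranin, which binds calmodulin at low calcium, had 28477 ± 3052 (SD, n = 3) in WT-Veh and 27055 ± 1469 in WT-Mem mice, against 21765 ± 3452 in KO-Veh and 20815 ± 2009 in KO-Mem mice. Every KO mouse was below every WT mouse, by −0.39 on the log2 scale (SE 0.07, adjusted p = 0.00867). Nrgn was also the single listed gene called in KO-M/WT-V (−0.45, SE 0.09, adjusted p = 0.0372), or 3.12% of its list against 3.37% of all genes. Nrgn lost this call when any mouse other than KO-Mem replicate 3 was left out (adjusted p from 0.0571 to 0.151). Camkk2, the kinase that activates CaMKI and CaMKIV, was also lower in KO mice (−0.30, SE 0.06, adjusted p = 0.0112). Calm3, one of the calmodulin genes, was lower by a small amount (−0.18, SE 0.05, adjusted p = 0.0342, called in 4 of 12 and at 0.0859 without KO-Mem replicate 1), and Camk1d, a related kinase, was higher (0.20, SE 0.06, adjusted p = 0.0326, called in 5 of 12 and at 0.0772 without KO-Mem replicate 1).

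Of the 19 other MAGUK and associated genes, 2 were called (10.5%) and the median log2 fold change was −0.03. Dlg5, a more distant DLG relative, was higher in KO mice at 0.24 (SE 0.06, adjusted p = 0.0238, called in 9 of 12 and at 0.0566 without KO-Mem replicate 1), with 2015 ± 233 in WT-Veh and 2280 ± 183 in KO-Veh mice. Lin7b, a small PDZ protein that pairs with Cask, was lower at −0.30 (SE 0.08, adjusted p = 0.0275, called in 6 of 12 and at 0.0683 without KO-Mem replicate 2). Mpp3, which had the smallest p-value of this list in Veh-K/W, gave −0.21 there (SE 0.09, adjusted p = 0.308), and −0.13 without WT-Veh replicate 3.

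Of the 30 PSD-95 partners, 1 was called (3.33%) and the median log2 fold change was 0.05. This gene, Dlgap3, encodes a SAPAP protein that joins PSD-95 to Shank, and was lower in KO mice at −0.12 (SE 0.03, adjusted p = 0.0369, called in 3 of 12 and at 0.0954 without KO-Veh replicate 3). Dlgap4, another SAPAP gene, gave −0.13 in Veh-K/W (SE 0.06, adjusted p = 0.316) without a call. In Mem-K/W the smallest p-values belonged to Zdhhc2, a palmitoyl transferase that acts on PSD-95 (−0.28, SE 0.09, adjusted p = 0.145), and Begain, which binds the guanylate kinase domain of PSD-95 (0.21, SE 0.07, adjusted p = 0.152).

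Of the 23 genes of the IRSp53 family and its partners, 3 were called (13%), all higher in KO mice, and the median log2 fold change was 0.08. Abi1, a subunit of the WAVE actin regulatory complex, had 2544 ± 152 (SD, n = 3) in WT-Veh and 2605 ± 105 in WT-Mem mice, against 3148 ± 20.2 in KO-Veh and 3143 ± 458 in KO-Mem mice, a log2 difference of 0.28 (SE 0.06, adjusted p = 0.0140). The WT and KO mice did not overlap under vehicle, and under memantine KO-Mem replicate 3 (2627) fell within the WT range. Tiam1, a Rac exchange factor, gave 0.20 (SE 0.05, adjusted p = 0.0230, called in 9 of 12 and at 0.0618 without KO-Veh replicate 3), and Diaph1, a formin, gave 0.16 (SE 0.04, adjusted p = 0.0265, called in 6 of 12 and at 0.0681 without KO-Mem replicate 2). Wasl, which encodes N-WASP, gave 0.16 in Veh-K/W (SE 0.07, adjusted p = 0.303) without a call.

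**Figure D5:**
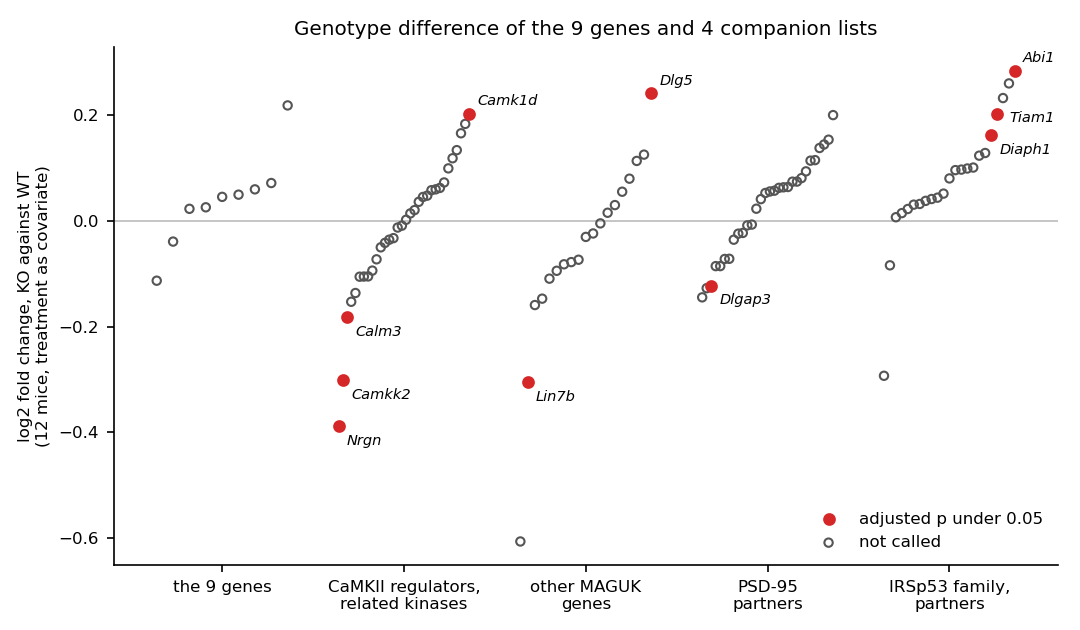
Log2 fold change of KO against WT in the 12-mouse fit (vertical axis) for the 9 genes and the 104 genes of the 4 companion lists (columns), each column sorted by value, with filled points for genes at an adjusted p-value under 0.05. None of the 9 genes is filled, and the filled points run from Nrgn at −0.39 to Abi1 at 0.28.

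Markers of some other cell types moved with genotype beside these lists. In the pooled genotype comparison 4 of 5 oligodendrocyte, 4 of 5 blood, 3 of 4 endothelial, and 2 of 5 astrocyte markers were called lower in KO mice. The share of all genes called in this comparison was 10.8%. No call was made among the choroid plexus markers (0 of 4) or the cerebellar markers (0 of 6). The summed oligodendrocyte markers were 286360 to 356090 in WT-Veh and 256660 to 302200 in WT-Mem mice, against 248730 to 266060 in KO-Veh and 205760 to 245520 in KO-Mem mice, and no marker of this list was at 0. Of 5 microglia markers, 1 was called lower. Among neuronal markers, 2 of 6 inhibitory markers were called higher and 1 lower, and 0 of 6 excitatory, 0 of 6 striatal, and 0 of 4 pan-neuronal markers were called. The part of these markers in the values of the 9 members and the companion genes was not tested.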

How the data were processed

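RNA-Seq of poly-A RNA from 12 mice was used, and groups and replicate numbers were taken from the labels. The authors estimated transcript abundance with Salmon 1.1.0 on GRCm38, summarized it to genes with tximport, and deposited normalized counts, a non-negative signal per gene in the form of estimated counts scaled by DESeq2 (version 1.26.0 in the submitters' processing notes). Whole reads could not be recovered, so count models were not used and the depth per mouse is unknown. Of 19312 genes, 19295 matched GENCODE M21, which gave symbols, lengths, and coordinates. Genes with a mean of at least 10 over the mice of a fit were tested on log2(value + 1) with limma 3.58.1 (trended eBayes), with Benjamini-Hochberg adjustment over all genes tested and a threshold of 0.05. The fit was tested on simulated data for Veh-K/W, where it called none of the changes of the smallest simulated size. That size exceeded the Veh-K/W difference of every member except Camk2d. An absence of calls in the comparisons of 2 groups is therefore not read as an absence of change. Ratios were tested by exact permutation. Named companion genes are every called gene of the 4 lists and the 2 with the smallest p-values in Veh-K/W and in Mem-K/W, and similar genes are those with the highest Pearson r. The members and lists were chosen with earlier results of these data known. Alternatives were other pseudocounts, filters, normalizations, eBayes settings, a joint fit, a replicate block, and leaving out each mouse. P-values measure the spread between these mice, whose litters the labels do not give.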

Additional observations from a re-analysis of the deposited data

How the results depend on the processing

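Across 10 other settings of the limma fits and fits that left out each mouse in turn, the count of members called was 0 of 9 in every comparison other than genotype pooled. In the pooled genotype comparison the count was 1, the gene being Camk2d, under quantile normalization, and 0 to 1 over the 12 fits that left out a mouse (adjusted p = 0.0485 without KO-Veh replicate 2 and 0.033 without KO-Mem replicate 3). With limma across the 12 ratios instead of exact permutation, 3 ratios passed for genotype and not 0. The direction turned under quantile normalization for Baiap2 (0.0177) and Dlg2 (0.00657) in Mem-K/W, and with both vehicle mice numbered 3 left out, a choice made after the data were seen, for Dlg1 (−0.0826 in Veh-K/W and −0.0107 pooled). Over the fits that left out a mouse, the values that changed sign were those of Baiap2 in Mem-K/W (−0.0261 to 0.0216), in Veh-K/W (−0.168 to 0.0135), and pooled (−0.0774 to 0.00311), Camk2a in Mem-K/W (−0.0448 to 0.0660), Camk2d for memantine pooled (−0.00148 to 0.11), Dlg1 in Mem-K/W (−0.0226 to 0.0807), in Veh-K/W (−0.0531 to 0.0468), and pooled (−0.00505 to 0.0415), and Dlg2 in Mem-K/W (−0.11 to 0.0578). The cause was not tested.

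Mice that share a replicate number did not deviate together, with correlations of their deviations from −0.18 to 0.08, so the numbers were not taken to pair mice. With the replicate block, 1 member, Camk2d, was called in the pooled genotype comparison (adjusted p = 0.0472). No ratio passed with the block, but exchanging labels only within a treatment and replicate number leaves too few arrangements for a single ratio to pass. No conclusion is drawn from that count of ratios. The number of all genes called with the block was 2 in place of 5 in Veh-K/W, 4 in place of 12 in Mem-K/W, 999 in place of 595 in KO-M/WT-V, 2 in place of 4 in WT-M/KO-V, and 1 in place of 2 in WT-M/V, and the called PSD-95 partners for genotype pooled were 3 in place of 1 (2 under quantile normalization).

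The counts of all genes called varied with the setting. One fit of all 12 mice gave 2 in place of 5 in Veh-K/W, 636 in place of 12 in Mem-K/W, 2067 in place of 595 in KO-M/WT-V, and 0 in place of 2 in WT-M/V. With no trend in eBayes there were 4 in Mem-K/W, 7 in KO-M/WT-V, 0 in place of 4 in WT-M/KO-V, and 894 in place of 1907 for genotype pooled, and robust eBayes gave 10 in Veh-K/W and 20 in Mem-K/W. With no filter on low values there were 5 in Mem-K/W and 365 in KO-M/WT-V, and a minimum mean of 50 gave 2 in Veh-K/W and 0 in WT-M/V. Either other pseudocount gave 3 in Veh-K/W and 1 in WT-M/V, where quantile normalization also gave 1. With both vehicle mice numbered 3 left out there were 3 in Veh-K/W and 636 for genotype pooled. Leaving out a mouse gave 2 to 53 in Veh-K/W, 2 to 1911 in Mem-K/W, 0 to 97 in KO-M/V, 1 to 2490 in KO-M/WT-V, 1 to 5 in WT-M/KO-V, 1 to 3 in WT-M/V, 694 to 2683 for genotype pooled, and 0 to 4 for the interaction. The companion genes called for genotype pooled fell from 4 to 2 among CaMKII regulators, from 2 to 0 among other MAGUK genes, from 1 to 0 among PSD-95 partners, and from 3 to 1 in the IRSp53 list with no trend, and with both vehicle mice numbered 3 left out they were 3, 1, 0, and 1. Over the left-out mice the 4 counts ran from 2 to 6, 0 to 3, 0 to 4, and 1 to 5.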
